A study of Macaca mulatta with 2 samples.

Results

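The genes described here encode the subunits of the NMDA receptor, a glutamate-gated cation channel of excitatory synapses. They were taken by symbol from a table of 33618 genes, and all 7 were found (GRIN1, GRIN2A, GRIN2B, GRIN2C, GRIN2D, GRIN3A and GRIN3B). The table held read counts from RNA sequencing of the prefrontal cortex of 2 infant rhesus macaques (Macaca mulatta), 1 control and 1 treated with the inhaled anesthetic sevoflurane. The labels give both animals an age of 28 days. By the labels, the treated animal inhaled about 2.5 to 3% sevoflurane at about postnatal days 7, 14 and 28, for 4 hours each time. The study's results section gives the same days, whereas its methods describe a later schedule and sampling right after the last exposure. No handling of the control animal is given in the sources used here. The study describes 3 animals per group, and the others were not analysed here. With 1 library per group, every difference compares 2 libraries, and animal, sex, exposure and dissection cannot be told apart.

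An NMDA receptor is a tetramer that needs the obligatory GRIN1 subunit, which binds glycine or D-serine. GRIN2 subunits bind glutamate and set the speed, calcium entry and magnesium block of the channel, and GRIN3 subunits bind glycine and lower its calcium permeability. In the developing cortex GRIN2B and GRIN2D are expressed early, and GRIN2A gains weight after birth, a change known as the subunit switch. Volatile anesthetics act on several ion channels, among them the NMDA receptor, which they inhibit.

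Depth differed, with 16960880 reads assigned to genes in the control library against 9839105 in the sevoflurane library. Counts were scaled with edgeR's TMM factors and are given as CPM, reads relative to a library scaled to a common size. The log2 ratio is that of sevoflurane over control CPM with a prior count of 2, and its 95% interval is an exact Clopper-Pearson interval on the split of a gene's reads between the libraries. Intervals cover counting error only and not the spread between animals. A gene was tested, that is compared, when it reached 1 CPM in either library, which 18050 genes did, and their median log2 ratio was -0.0048. Genes are called 2-fold apart where the log2 ratio reached 1 or -1 and the interval left out equal expression. Reads of Y-linked genes also set the libraries apart, with 3 in control and 4308 in treated cortex. The study's methods list only females as controls and 1 male among the treated animals. By these reads the treated animal analysed here was male. The part of sex in the results cannot be told apart from that of exposure.

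Of the 7 subunit genes, 6 were tested and GRIN3B was not. None of the 6 was 2-fold apart, in a table where by this rule 7.56% of tested genes were higher and 5.47% lower in treated cortex. GRIN1 and GRIN2D were higher in the sevoflurane library beyond counting error, GRIN2B, GRIN2C and GRIN3A were lower, and the interval of GRIN2A included 0. An interval excluding equal expression was common, since 28.4% of tested genes lay above it and 28.1% below it, and the deeper a gene was counted the smaller the difference that sufficed. The median log2 ratio of the 6 was -0.12, and it turned to 0.16 when the libraries were scaled to the summed reads of neuron markers.

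**Figure D1:**
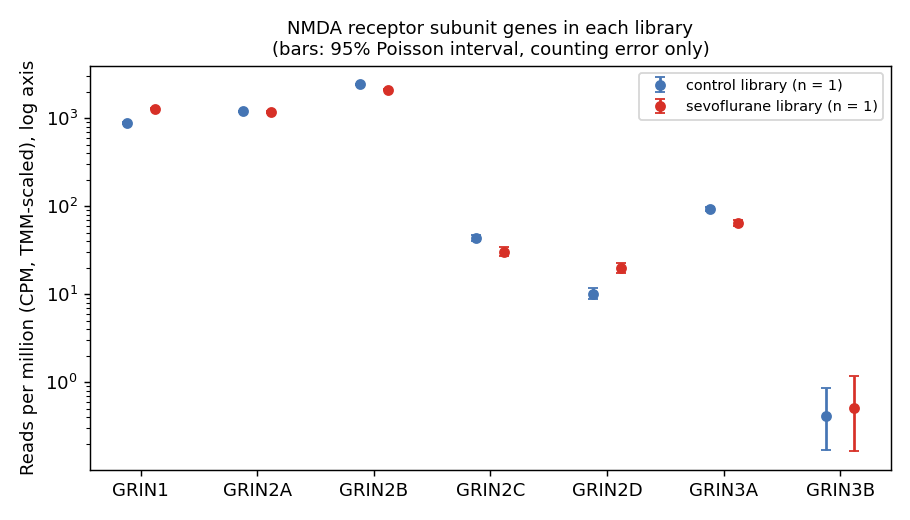
CPM of each NMDA receptor subunit gene on a log axis in the control (blue) and sevoflurane (red) library, with exact Poisson 95% intervals that cover counting error only. GRIN1 stood at 887 CPM in control and 1286 CPM in treated cortex, and GRIN3B was below 1 CPM in both.

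GRIN1, the obligatory subunit, had 14899 reads in control cortex and 12769 in treated cortex. These counts correspond to 887 CPM (95% Poisson interval 872 to 901) and 1286 CPM (1264 to 1308). Its level was thus 45.0% higher in the sevoflurane library, although that library was the shallower one. The log2 ratio was 0.54 (95% interval 0.50 to 0.57), higher than that of 81.7% of tested genes. Over the other scalings and settings it ranged from 0.53 to 0.81.

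GRIN2A, the subunit that gains weight as cortex matures, had 20168 reads in control cortex and 11664 in treated cortex, or 1200.2 and 1175 CPM. The libraries were not distinguishable for it by counting error, with a log2 ratio of -0.031 (95% interval -0.064 to 0.0018). Its place was near the middle of the table, above 47.8% of tested genes.

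GRIN2B, the early partner of GRIN1, held the most reads of the family. It had 40828 reads in control cortex and 20971 in treated cortex, or 2429.6 and 2112 CPM. Its level was lower, with a log2 ratio of -0.20 (95% interval -0.23 to -0.18), but it was higher, by 0.07, when the libraries were scaled to neuron markers. The decrease relative to all genes was 13.1% of the control level.

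GRIN2C, which in cortex is known mainly from astrocytes, had 728 reads in control cortex and 303 in treated cortex, or 43.3 and 30.5 CPM. The log2 ratio was -0.50 (95% interval -0.70 to -0.31). GRIN2D, known in cortex from inhibitory interneurons, had 171 and 198 reads, or 10.2 and 19.9 CPM. It was the only subunit with more reads in the shallower sevoflurane library. Its log2 ratio of 0.96 (95% interval 0.67 to 1.27) was the highest of the family and exceeded that of 91.6% of tested genes. It lay just under the 2-fold threshold and passed it only when scaled to neuron markers (1.23).

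GRIN3A, a subunit of juvenile cortex that restrains the maturation of synapses, had 1549 reads in control cortex and 641 in treated cortex. These were 92.2 CPM (95% Poisson interval 87.6 to 96.9) and 64.5 CPM (59.6 to 69.7). The log2 ratio was -0.51 (95% interval -0.65 to -0.38), and 16.5% of tested genes were lower. The gene PPP3R2 overlaps GRIN3A in the RefSeq gene table, and it held 35 and 21 reads. GRIN3B had 7 reads in control cortex and 5 in treated cortex, or 0.417 and 0.503 CPM. No difference in GRIN3B was detectable at this depth, since its interval ran from -1.73 to 2.15. It overlaps TMEM259, which held 2534 and 1469 reads, and whether counting used the strand is not given in the sources used here, so the few GRIN3B reads are uncertain.

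**Figure D2:**
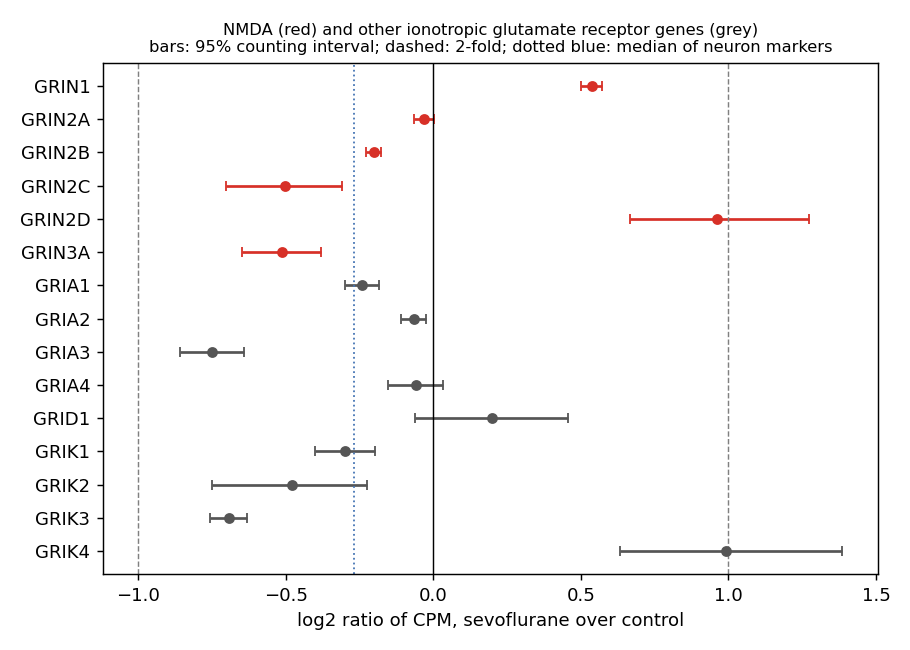
Log2 ratio of CPM, sevoflurane over control, for the 6 tested NMDA receptor subunits (red) and 9 other ionotropic glutamate receptor genes (grey), with 95% counting intervals. GRIN1 (0.54) and GRIN2D (0.96) lie to the right of 0, GRIN2B, GRIN2C and GRIN3A to the left, and the dotted line marks the median of the neuron markers at -0.27.

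Taken as a sum, the reads on the 7 genes hardly differed. They made up 0.462% of the control library (78350 reads) and 0.473% of the sevoflurane library (46551 reads), with a log2 ratio of 0.0077 (95% interval -0.0089 to 0.024). Within this sum the shares moved in opposite directions. The share of GRIN1 was 19.0% in the control (exact 95% interval 18.7 to 19.3) and 27.4% in the sevoflurane library (27.0 to 27.8). GRIN2B took 52.1% of the subunit reads in the control (51.8 to 52.5) and 45.0% in the sevoflurane library (44.6 to 45.5). For GRIN2A the shares were close, at 25.7% and 25.1%. GRIN3A accounted for 1.98% and 1.38%, GRIN2C for 0.929% and 0.651%, GRIN2D for 0.218% and 0.425%, and GRIN3B for 0.00893% and 0.0107%. Shares of reads are not shares of transcripts, because gene length was not corrected for.

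**Figure D3:**
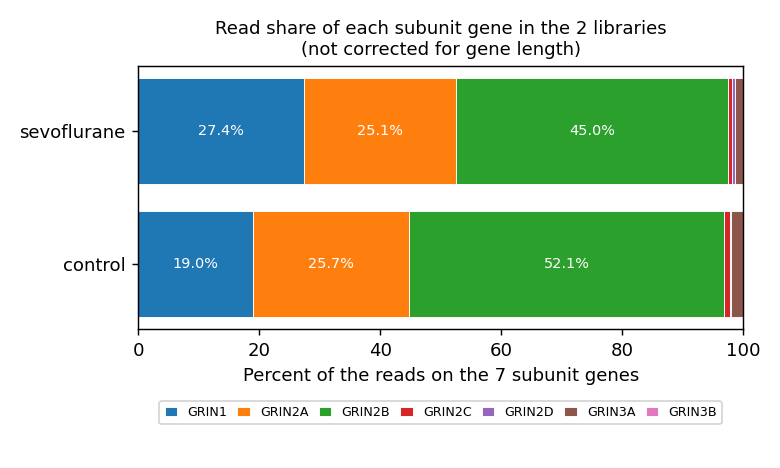
Percent of the reads on the 7 subunit genes that fell on each gene, in the control (lower bar) and sevoflurane (upper bar) library, not corrected for gene length. GRIN1 widened from 19.0% to 27.4%, GRIN2B narrowed from 52.1% to 45.0%, and GRIN2A stayed close at 25.7% and 25.1%.

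The balance of GRIN2A to GRIN2B relates to the subunit switch. In bulk tissue of 1 animal per group it does not measure how far the switch had proceeded. There were 0.494 reads of GRIN2A per read of GRIN2B in control cortex and 0.556 in treated cortex. As a share of the pair, GRIN2A took 33.1% (exact 95% interval 32.7 to 33.4) and 35.7% (35.2 to 36.3). Library size and gene length cancel when the 2 read ratios are divided, and the result was 1.13 (exact conditional 95% interval 1.09 to 1.16), a log2 value of 0.17. The intervals do not overlap, but there is no spread between animals to set it against. With GRIN2A set against GRIN2B, GRIN2C and GRIN2D together the log2 value was 0.17. GRIN2B held most of the reads of that sum in both libraries, so this value had to lie close to that of the pair.

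Ratios that involve GRIN1 or GRIN2D shifted more than that of GRIN2A to GRIN2B, and so did some without them. GRIN2A gained 0.48 on GRIN3A and 0.47 on GRIN2C, and GRIN2B gained 0.31 and 0.30 on the same genes. The summed GRIN2 reads per GRIN1 read were 4.15 in control cortex and 2.60 in treated cortex, a log2 shift of -0.68 (95% interval -0.72 to -0.64). GRIN1 gained on GRIN2A by 0.57, on GRIN2B by 0.74 and on GRIN2C by 1.04. GRIN2D gained even on GRIN1, with 87.1 GRIN1 reads per GRIN2D read in control cortex and 64.5 in treated cortex. For GRIN2B against GRIN2D, which are both early subunits, the reads of GRIN2B per read of GRIN2D were 239 and 106. The ratio of GRIN2C to GRIN2D fell by 1.48 on the log2 scale (95% interval -1.84 to -1.11), from 4.26 to 1.53 reads of GRIN2C per read of GRIN2D. GRIN2C and GRIN3A kept nearly the same ratio to each other, at 0.470 and 0.473. Of the 15 pairs that leave out GRIN3B, that pair was the 1 whose interval included equal ratios, and the other 14 intervals excluded them. The pairs reuse the same 6 genes, and no share over pairs of other genes was computed. Among single tested genes 56.5% had an interval that excluded equal expression, but a share of single genes is no background for pairs. Whether the count of pairs is particular to these subunits was therefore not tested.

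**Figure D4:**
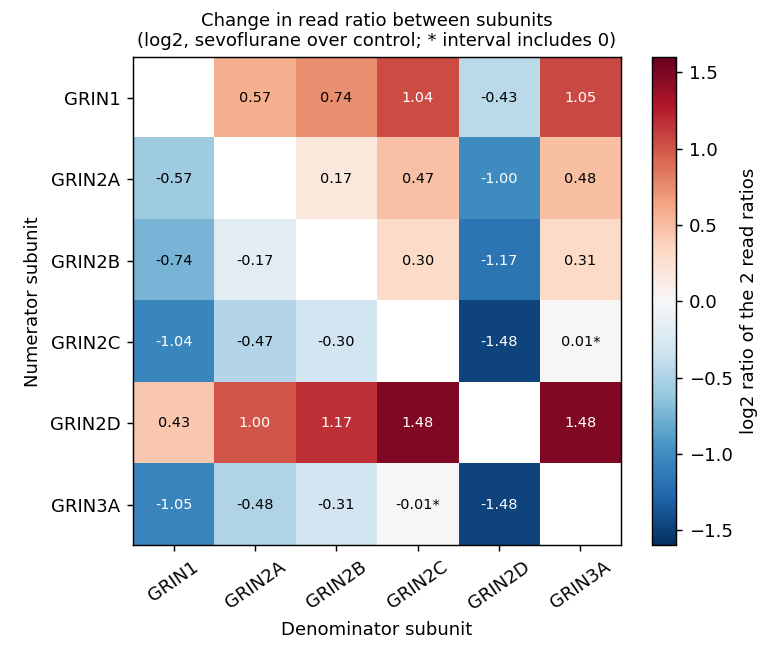
Shift in the read ratio of each pair of subunits, as the log2 of the sevoflurane read ratio over the control read ratio, with numerators in rows and denominators in columns. The GRIN1 row runs from -0.43 against GRIN2D to 1.05 against GRIN3A, GRIN2A against GRIN2B is at 0.17, and an asterisk marks the pair whose 95% interval includes 0.

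Cell type markers differed between the libraries as well, and in bulk tissue fewer cells of a type and less RNA per cell cannot be told apart. All markers on the lists had reads in both libraries. Of 10 neuron markers, 2 lay above equal expression and 7 below it by their intervals, with a median log2 ratio of -0.27 and a summed level of 8512 CPM in control and 7042 CPM in treated cortex. MAP2, the dendritic microtubule protein, held 40.7% and 38.0% of those reads. RBFOX3, the nuclear neuron marker NeuN, was highest of the list (0.83), and TUBB3, a neuronal tubulin, was lowest (-0.75). Per 100 neuron marker reads there were 10.4 and 18.3 reads of GRIN1, 14.1 and 16.7 of GRIN2A, and 28.5 and 30.0 of GRIN2B. On this scale GRIN1, GRIN2A, GRIN2B and GRIN2D were higher in the sevoflurane library, GRIN2C and GRIN3A were lower, and the summed family was higher by 0.28 (95% interval 0.26 to 0.30).

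Glutamatergic neuron markers gave another picture. Their summed level was 1676 CPM in control and 1856 CPM in treated cortex, with 4 of the 8 above and 4 below equal expression. SLC17A7, the main vesicular glutamate transporter of cortex, had a log2 ratio of -0.13 (0.15 when scaled to neuron markers). It held 16767 of the 28166 marker reads in control cortex and 9073 of 18430 in treated cortex. The summed level was thus higher in treated cortex although the marker with the most reads, SLC17A7, was lower. SLC17A6, its relative, was at 1.73 and the upper layer factor CUX2 at 1.12, while NEUROD6 was at -2.69 and the deep layer factor FEZF2 at -1.14. Relative to this sum, GRIN1 was higher by 0.39, GRIN2A and GRIN2B were lower, at -0.18 and -0.35, and the whole family was lower, at -0.14 (95% interval -0.17 to -0.11). The direction of GRIN2A, of GRIN2B and of the family sum therefore depended on which neuronal reference was used, whereas GRIN1 and GRIN2D were higher and GRIN2C and GRIN3A lower against both.

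Markers of the cells from which GRIN2C and GRIN2D are known moved as follows. Astrocyte markers summed to 6147 CPM in control and 4264 CPM in treated cortex, with 5 of 7 below equal expression and 1 above. GFAP, the astrocyte filament protein, was at -1.35, the water channel AQP4 at -1.38, the glutamate transporter SLC1A2 at -0.37 and its relative SLC1A3 at 0.27. GRIN2C reads per 100 astrocyte marker reads were 0.705 and 0.716, a log2 shift of 0.02 (95% interval -0.18 to 0.22). GRIN3A shifted as little against the same sum, by 0.01 (95% interval -0.12 to 0.15). GFAP alone held 35639 of the 103293 astrocyte marker reads in control cortex and 8263 of 42342 in treated cortex. Both shifts therefore depend in large part on GFAP, and a sum without it was not taken. GABAergic interneuron markers summed to 527 and 466 CPM, with 1 of 9 above and 4 below. GAD1, which makes GABA, was at -0.23 (0.04 when scaled to neuron markers). SST, a neuropeptide of an interneuron class, was at -0.35 (-0.08 when scaled to neuron markers, 95% interval -0.24 to 0.07). PVALB, the calcium buffer of fast-spiking interneurons, was the 1 marker above, with 68 reads in control cortex and 221 in treated cortex (log2 ratio 2.42). GRIN2D was higher relative to the interneuron marker sum by 1.15 (95% interval 0.84 to 1.46). GAD1 alone held 4159 of the 8858 reads of that sum in control cortex and 2093 of 4626 in treated cortex. Relative to PVALB alone GRIN2D was lower, since its log2 ratio was 0.96, and relative to each of the other interneuron markers it was higher. The part of these markers in the subunit results was not tested.

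Other glial and vascular markers were measured too. Oligodendrocyte markers were all 6 below equal expression, summing to 4056 and 1994 CPM. MOG, on the outer face of myelin, had the lowest log2 ratio (-1.90) and MBP, a main myelin protein, the highest (-0.56), with MAG at -1.21, CNP at -1.12 and MOBP at -1.10 between them. All 5 precursor markers were below as well, at 368 and 288 CPM, from -0.47 (OLIG1) to -0.22 (CSPG4, 0.05 when scaled to neuron markers), with PDGFRA at -0.40. Microglia markers summed to 224 and 241 CPM, with 3 of 7 above and 1 below equal expression. They ran from -0.52 (P2RY12) to 1.35 (the complement gene C1QB), and CSF1R was at 0.22. Endothelial markers summed to 150.3 and 153 CPM, with 1 of 5 above and 1 below, from -0.37 (FLT1) to 0.32 (CDH5), and VWF was at -0.018.

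The other ionotropic glutamate receptor genes, which form AMPA, kainate and delta receptors, were set beside the NMDA receptor subunits. Of 11 listed, 9 were analysed here, and 1 lay above and 6 below equal expression, with a median log2 ratio of -0.24 that turned to 0.03 when scaled to neuron markers. None was 2-fold apart with TMM scaling. GRIA2, the AMPA receptor subunit that limits calcium entry, had 12289 and 6939 reads and a log2 ratio of -0.07 (0.21 when scaled to neuron markers). GRIA3, another AMPA receptor subunit, was lowest at -0.75, and the kainate receptor subunit GRIK4 was highest at 0.99, with 111 and 132 reads, and passed the 2-fold rule with library totals (1.02), upper quartile scaling (1.00), a prior count of 0.5 (1.00), thinned control reads (1.02) or neuron marker scaling (1.26). The 7 NMDA receptor genes together had 3.15 reads per read of the 4 AMPA receptor genes in control cortex and 3.58 in treated cortex, a log2 shift of 0.18 (95% interval 0.15 to 0.22). GRIN1 alone gained 0.71 on the AMPA receptor genes, while the GRIN2 sum gained 0.034 (95% interval -0.0027 to 0.070). Against the 4 kainate receptor genes the NMDA receptor sum gained 0.56.

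Genes that work with the receptor were grouped by role in 7 lists, the other ionotropic receptors included. Of 96 genes listed, 90 were tested, of which 3 passed the 2-fold rule upward and 2 downward. By their intervals 29 lay above equal expression and 39 below it, with a median log2 ratio of -0.05. Across all tested genes 13.0% were 2-fold apart in either direction and 56.5% had an interval that excluded equal expression.

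Scaffold proteins, which anchor the receptor in the postsynaptic density, had the highest median of these lists, at 0.14 over 14 tested genes. By interval 6 lay above equal expression and 1 below. DLGAP3, a linker between the PSD-95 family and the SHANK proteins, had 4101 reads in control cortex and 5114 in treated cortex (log2 ratio 1.08, 95% interval 1.02 to 1.14). SHANK1, a master scaffold, had 13243 and 11076 reads (0.50), and DLGAP2 was lowest (-0.27, 95% interval -0.66 to 0.10). The DLG genes encode the PSD-95 family, which binds GRIN2 tails. DLG4, which encodes PSD-95, had 14916 and 8437 reads and a log2 ratio of -0.06 (0.21 when scaled to neuron markers). DLG3 and DLG2, which encode SAP102 and PSD-93, were at 0.00 (95% interval -0.07 to 0.07) and -0.03 (-0.12 to 0.06), and DLG1, which encodes SAP97, was at 0.22. Scaled to neuron markers DLG2 (0.24), DLG3 (0.27) and DLG1 (0.50) all lay above equal expression.

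Trafficking and auxiliary proteins had a median of -0.12 over 13 tested genes, which turned to 0.15 when scaled to neuron markers, with 2 above and 7 below equal expression. EPHB2, a receptor tyrosine kinase that clusters NMDA receptors, had 1289 reads in control cortex and 1624 in treated cortex (log2 ratio 1.09, 95% interval 0.99 to 1.20). NETO1, an auxiliary protein of the receptor, had 2240 and 784 reads and the lowest log2 ratio (-0.75). The adaptor APBA1 held the most reads of the list, and its interval included equal expression (0.05). RELN, whose product reelin enhances NMDA receptor currents, was at -0.55, and its receptor LRP8 was at -0.12 (0.15 when scaled to neuron markers).

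The glycine and D-serine supply list, which covers the coagonists of GRIN1, had the lowest median of these lists, at -0.39 over 9 tested genes (-0.12 when scaled to neuron markers). By interval 6 lay below equal expression and 1 above. The serine transporter SLC1A4 had 3949 reads in control cortex and 1394 in treated cortex (log2 ratio -0.74, 95% interval -0.83 to -0.65). SRR, the racemase that makes D-serine, had 1439 and 619 reads (-0.46), and PHGDH, the first enzyme of serine synthesis, was at -0.39 (-0.12 when scaled to neuron markers, 95% interval -0.29 to 0.05). The glycine transporter SLC6A9 was at -0.24 (0.03 when scaled to neuron markers). GLDC, which breaks down glycine, was highest at 0.71, with 288 and 280 reads. Several of these genes are known from astrocytes, whose markers were lower in the sevoflurane library too, and their part in this list was not tested.

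Kinases and phosphatases that act on the subunits had a median of -0.20 over 18 tested genes, which turned to 0.07 when scaled to neuron markers. Of them, 7 lay above equal expression and 10 below. FYN, a kinase of GRIN2B, was at -0.40, and PTPN5, the tyrosine phosphatase STEP, was at 0.46. SRC, a kinase of the same family as FYN that was named after its values were seen, was at 0.59 (95% interval 0.46 to 0.71). CDK5, a kinase of GRIN2A, was lowest (-0.57). PRKCB held the most reads, at -0.13 (0.14 when scaled to neuron markers), and PPP3CA, a catalytic subunit of calcineurin, was at 0.46. PRKACB was 2-fold apart on 9 and 22 reads only (95% interval 0.87 to 3.35).

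Calcium signalling genes below the receptor had a median of -0.11 over 15 tested genes (0.16 when scaled to neuron markers), with 7 above and 7 below equal expression. CAMK2A, the kinase that binds the GRIN2B tail, had 33794 reads in control cortex and 24891 in treated cortex (log2 ratio 0.32, 95% interval 0.29 to 0.34). CAMK2D, a form of the kinase less tied to neurons, had 2112 and 598 reads (-1.06, 95% interval -1.19 to -0.93), and CAMK2B was at -0.21 (0.06 when scaled to neuron markers). TIAM1, a Rac activator, had 61 and 17 reads (-1.02). Relative to the neuron markers CAMK2D (-0.79) and TIAM1 (-0.77) were less than 2-fold apart. With control reads thinned to equal depth they were at -0.99 and -0.73. RASGRF2, a Ras activator, was highest at 0.47. NOS1, which couples to the receptor through PSD-95, was at -0.30 (95% interval -0.49 to -0.13). Scaling to neuron markers, a shift of about 0.27, brings 0 into the interval of NOS1.

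Transcriptional regulators known to act on subunit genes had a median of 0.08 over 12 tested genes, with 5 above and 2 below equal expression. REST, a repressor that silences GRIN2B during the subunit switch in rodents, had 348 reads in control cortex and 164 in treated cortex (log2 ratio -0.32, 95% interval -0.60 to -0.05). Scaling to neuron markers, a shift of about 0.27, brings 0 into the interval of REST. The REST corepressor RCOR1 was highest at 0.66 on 28 and 27 reads, with an interval of -0.11 to 1.52. Among Polycomb genes EED was lowest at -0.58, and EZH2 was at -0.07 on 119 and 67 reads (95% interval -0.52 to 0.37). TBR1, a cortical factor that activates GRIN2B, had 2347 and 2057 reads and a log2 ratio of 0.57 (95% interval 0.48 to 0.65). GRIN2B itself was at -0.20, or 0.07 when scaled to neuron markers. The part of these regulators in the subunit results was not tested. MEF2C, an activity-responsive factor, held the most reads of the list and was at 0.05.

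**Figure D5:**
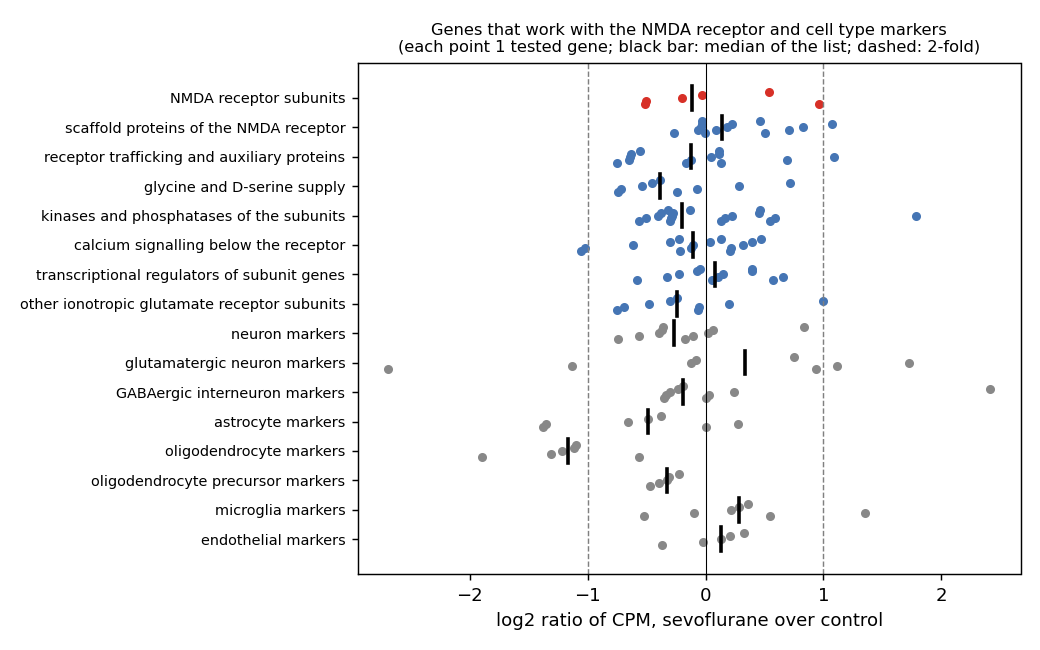
Log2 ratio of CPM, sevoflurane over control, for every tested gene of the NMDA receptor subunits (red), of the 7 lists of genes that work beside them (blue) and of the cell type markers (grey), with the median of each list as a black bar. The scaffold list has its median at 0.14, the glycine and D-serine supply list at -0.39 and the oligodendrocyte markers at -1.17.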

How the data were processed

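Prefrontal cortex RNA of 2 rhesus macaques, 1 per group, was sequenced. The authors deposited whole-number counts per gene for both libraries, without normalization. The submitters' processing notes name HISAT2 2.0.4. The counting tool, its treatment of strand and of reads matching several genes, the genome build and the annotation are not given in the sources used here. All 7 subunits were found by symbol, and all 7 matched the RefSeq table of the macaque assembly MMU8v2.0, which was used only to find overlapping genes.

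TMM scaling (edgeR 4.0.16, R 4.3.3) used the 18050 genes that reached 1 CPM in a library, with factors of 0.991 (control) and 1.01 (sevoflurane). Ratios used a prior count of 2. Clopper-Pearson, Poisson and conditional odds ratio intervals were computed at 95% with scipy 1.17.1. The quasi-likelihood test of edgeR needs replicates, so there are no p-values. The members, lists and rules were chosen with earlier results of these data known. Named are all subunits and, per list, genes past 2-fold (at most the 4 with the most reads), the highest and lowest ratio and the gene with the most reads. DLG1, DLG2, DLG3, DLG4, CAMK2A, CAMK2B, NOS1, SRR, PHGDH, SLC6A9, REST, EZH2, TBR1, FYN, PTPN5, RELN, LRP8 and PPP3CA were added for their role, and SRC after its values were seen. Some items that this rule covers are not reported here. The procedure was tested on simulated data. Alternatives were scaling by library totals, upper quartile, DESeq2 1.42.0 size factors or neuron markers, another prior count, other filters, thresholds and intervals, and thinning of the control reads to equal depth.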

Additional observations from a re-analysis of the deposited data

How the results depend on the processing

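The GRIN2A to GRIN2B balance stayed within its counting interval under its 4 alternatives, but these could hardly move it. A wider interval leaves the estimate itself unchanged, and a prior count of 2 is small beside the reads of either gene. Adding GRIN2C and GRIN2D to GRIN2B adds few reads. Thinning of the control reads keeps their proportions apart from sampling error, and it gave 0.167. The 4 outcomes are therefore little evidence that the balance is robust. Scaling to the neuron markers shifted all log2 ratios by about 0.27 and turned the median of the NMDA receptor subunits to 0.16 and GRIN2B to 0.071. It likewise turned the medians of the trafficking proteins (0.15), the kinases and phosphatases (0.070) and the other ionotropic receptors (0.032). The neuron marker median turned too, by construction, to 0.0039. Calcium signalling (0.16) and interneuron markers (0.082) also turned, from medians whose list interval had included 0. A list interval was the median of its genes' lower limits and of their upper limits, and not a counting interval of the median. The other named genes that turned and had lain beyond counting error were PRKCB (0.14), GRIA2 (0.21), SLC17A7 (0.15), GAD1 (0.042), CSPG4 (0.049), DLG4 (0.21), CAMK2B (0.058), SLC6A9 (0.032) and LRP8 (0.15). GRIN2A, DLG2, DLG3, EZH2 and VWF, whose intervals had included 0, went from slightly negative to 0.24, 0.24, 0.27, 0.20 and 0.25. OLIG1 (-0.20), FLT1 (-0.099), SST (-0.082), PHGDH, REST and NOS1 stayed negative, but their intervals then included 0. No other setting turned a direction beyond the counting interval of a subunit or named gene, or beyond the list interval of a median. With a filter of 1 read, which adds GRIN3B, the subunit median was -0.031. Of the 7 single subunits, 2 stayed within their counting interval when scaled to neuron markers, and so did 34 of 35 values under the other settings that can change them. Filtering at 5 CPM leaves fewer genes and gave 570.0 genes at least 2-fold higher and 501 lower, against 1364 and 988, and left 3 of 5 genes 2-fold apart in the lists of genes that work with the receptor. Thresholds of 1.5-fold and 4-fold gave 2604 and 352 genes higher and 2141 and 221 lower, as their construction requires. No paired analysis was possible because there was a single library of either group, and no replicate could be left out. The depth of the sevoflurane library, where 3 reads are 0.305 CPM, limits what can be said of GRIN3B.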
